A study of Mus musculus with 21 samples.

Results

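The transcription factors of cortical excitatory neurons were examined in the 24 h cortex after high-frequency head impact (HF-HI). The members are 9 genes taken by symbol, Mef2a, Mef2c, Mef2d, Tbr1, Neurod2, Neurod6, Bcl11a, Bcl11b and Cux2, and 8 of them are among the 5544 genes of the table. Neurod2 was not analysed here. The samples are 21 cortex libraries from male mice aged 12 weeks, 10 sham and 11 HF-HI, whose strain is C57BL/6 in the labels and C57Bl/6J in the study's methods. The labels number the samples of a group without saying that each is a separate mouse, so p-values measure the spread between these samples. HF-HI mice received repeated daily head impacts under isoflurane anesthesia and were sampled 24 h after the last one. The sham group was anesthetized and handled in parallel but never struck, so repeated anesthesia is common to both groups. Total RNA was taken from whole cortical homogenate after removal of ribosomal RNA. Each value is therefore a sum over all layers and cell types of the dissected tissue, and more cells of a type cannot be told apart from more RNA per cell.

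The MEF2 proteins bind DNA through a MADS domain and switch between repression, with class II histone deacetylases, and activation, which follows calcium entry and calcineurin. In neurons they link synaptic activity to transcription and to the number of excitatory synapses, and Mef2c is the most abundant paralog in cortex. Tbr1 is a T-box factor that specifies corticothalamic neurons of layer 6. Cux2 is a homeobox factor of upper-layer neurons. The zinc finger factor Bcl11b, also called Ctip2, specifies layer 5 projection neurons and is also abundant in striatal projection neurons and in interneurons, and Bcl11a is its paralog. Neurod2 and Neurod6 are basic helix-loop-helix factors of pyramidal neurons that act as dimers with E proteins such as Tcf4. Because Tbr1, Cux2 and Bcl11b belong to different layers, their joint behaviour across libraries is also a check, though a partial one, on what was dissected.

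Levels are given as log2 values after variance stabilization, which span 4.59 to 17.68 over all genes and libraries. Total depth is unknown because counts were not analysed here. The depth of a library relative to the median library, from the spacing of its values, ran from 0.580 to 1.26 in sham and from 0.548 to 1.63 in HF-HI. The libraries also differed in how strongly a gene's value followed its exonic GC content, with a slope of -0.23 to 0.0058 log2 units per 10% GC in sham and of -0.039 to 0.16 in HF-HI. All HF-HI libraries but replicate 9 lay above the highest sham slope, so the GC content of each factor is given beside its difference. The median over genes of the HF-HI minus sham difference was -0.0086, while the median value of a library was 9.68 to 9.72 in sham and 9.73 to 9.76 in HF-HI.

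Of the 8 factors, 6 were called higher in HF-HI and 0 lower (limma, Benjamini-Hochberg adjusted p under 0.05 over all 5544 genes). Among all genes 66.3% were called, 32.6% higher and 33.6% lower, or 1810 and 1864 genes. With each library centred on its median these counts were 1448 and 2376, and with quantile normalization 1547 and 2242. After removal of the GC trend all 8 factors were called higher, where 29.2% of all genes were. The median log2 difference of the 8 factors was 0.34. Tbr1, Cux2, Mef2a and Bcl11a, 4 of the 8, had no overlap between the groups with HF-HI above, a pattern that 8.71% of all genes showed, while 0 of the 8 had HF-HI wholly below, which 4.76% of all genes did. The factors that did not pass were Mef2c and Neurod6. Mef2d and Bcl11b passed with overlapping groups.

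**Figure D1:**
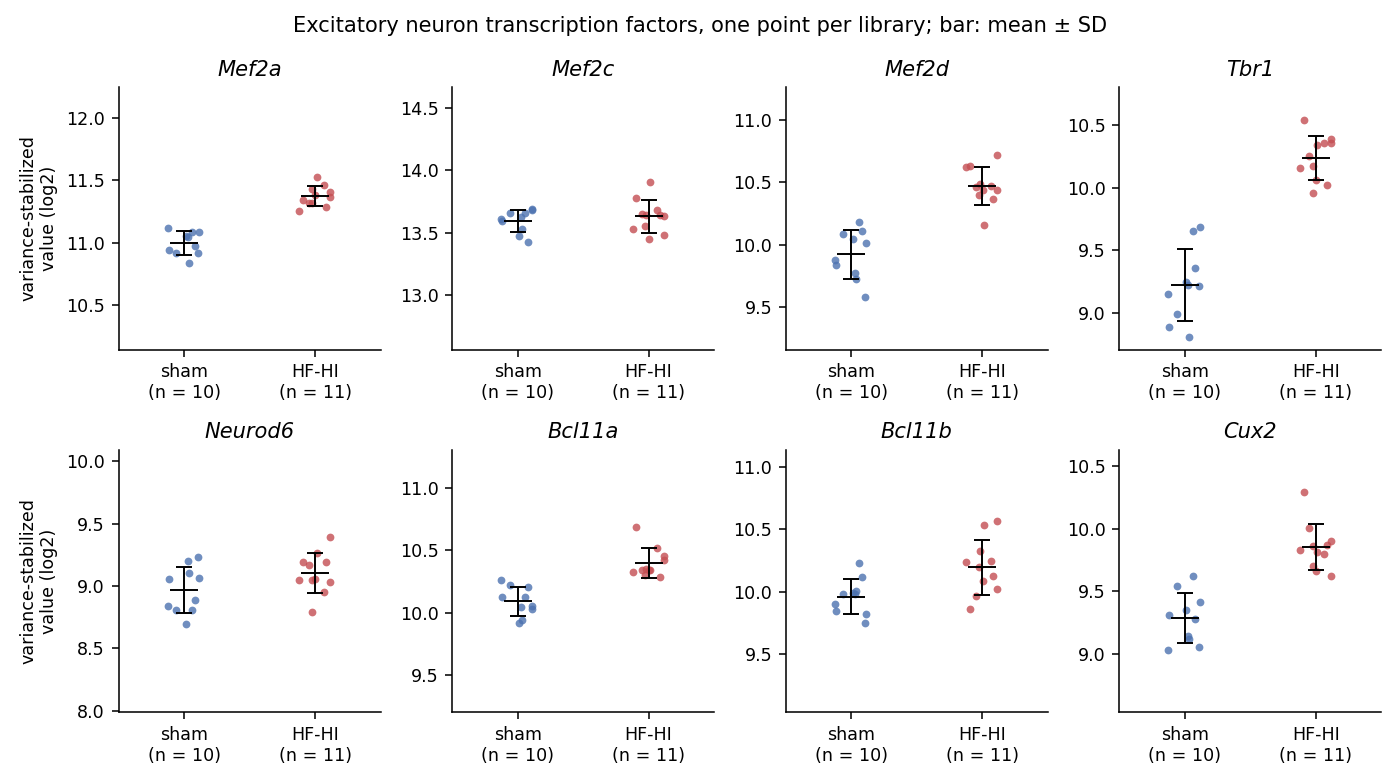
Variance-stabilized values (log2, y axis) of the 8 factors in the 10 sham and 11 HF-HI libraries, one point per library, with the mean and SD as bars and the same span of the y axis in every panel. Tbr1, Cux2, Mef2a and Bcl11a show no overlap between the groups, and Mef2c and Neurod6 overlap almost completely.

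Tbr1 (ENSMUSG00000035033, chromosome 2 from 61802930 to 61814114 of GRCm38), the layer 6 factor, had the largest difference. Its level lay between 8.81 and 9.68 (median 9.22) among the sham libraries and between 9.96 and 10.54 (median 10.25) among the HF-HI libraries. The lowest HF-HI library was thus above the highest sham library. The difference was 1.02 on the log2 scale (standard error 0.0957, 95% interval 0.82 to 1.21, adjusted p = 8.76e-09 in limma), or 2.02-fold, and 0.595% of all genes had a larger one. Tbr1 has an exonic GC content of 51.1%, where the median gene has 47.6%. Within the groups the relation of its level to the GC slope of the library did not pass the threshold (Pearson's r = 0.387 in sham and -0.0866 in HF-HI, Spearman's rho = 0.552 and 0.173, permutation p of r = 0.268 and 0.80, adjusted p = 0.537 and 0.910 over 80 relations, permutation p of rho = 0.106 and 0.614, adjusted p = 0.425 and 0.847, r = 0.252 and 0.480 without the 2 libraries farthest from the median slope).

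Cux2 (ENSMUSG00000042589, chromosome 5 from 121856366 to 122050102), the upper-layer factor, rose as well. It lay between 9.03 and 9.62 (median 9.29) among the sham libraries and between 9.62 and 10.29 (median 9.83) among the HF-HI libraries. The highest sham library and the lowest HF-HI library nearly touch at 9.62, and HF-HI replicate 3 stood above the rest at 10.29. The log2 difference was 0.57 (standard error 0.0779, 95% interval 0.40 to 0.73, adjusted p = 1.63e-06 in limma), or 1.48-fold, and was 0.52 without HF-HI replicate 3. Cux2 is the most GC-rich of the 8 factors at 55.8%. Its difference was 0.39 with the GC trend removed and 0.34 with GC and length trends removed, and was called in both (adjusted p = 3.8e-05 and 1e-04 in limma). Against the GC slope of the library, Cux2 had Pearson's r = 0.755 in sham and 0.284 in HF-HI (permutation p = 0.0138 and 0.376, adjusted p = 0.119 and 0.668). Spearman's rho was 0.721 and 0.536 (permutation p = 0.0235 and 0.0939, adjusted p = 0.204 and 0.417), and r was 0.559 and 0.455 without the 2 farthest libraries.

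The 3 MEF2 genes behaved differently from one another. Mef2a (ENSMUSG00000030557, chromosome 7 from 67231163 to 67372858) lay between 10.84 and 11.12 (median 11.01) among the sham libraries and between 11.26 and 11.53 (median 11.37) among the HF-HI libraries. No HF-HI library reached down to the sham range. Its log2 difference was 0.38 (standard error 0.0386, 95% interval 0.30 to 0.45, adjusted p = 3.03e-08 in limma), or 1.30-fold. Mef2d (ENSMUSG00000001419, chromosome 3 from 88142372 to 88172086) lay between 9.58 and 10.18 (median 9.95) among the sham libraries and between 10.16 and 10.72 (median 10.47) among the HF-HI libraries. All HF-HI libraries but replicate 9, at 10.16, lay above the highest sham library. The log2 difference was 0.55 (standard error 0.0702, 95% interval 0.40 to 0.69, adjusted p = 5.89e-07 in limma), or 1.46-fold.

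Mef2c (ENSMUSG00000005583, chromosome 13 from 83504034 to 83667080), the most abundant of them, was not called. Its level lay between 13.43 and 13.69 (median 13.62) among the sham libraries and between 13.45 and 13.90 (median 13.64) among the HF-HI libraries. The groups overlapped, with 2 HF-HI libraries above and 0 below the sham range. The log2 difference was 0.035 (95% interval -0.063 to 0.13, adjusted p = 0.522 in limma), so a change of more than 1.10-fold in either direction lies outside the interval. Mef2a and Mef2c are close in exonic GC content, 38.4% and 38.6%, and in exonic length, 14681 and 15715 bases, while Mef2d is GC-rich at 55.1%. With the GC trend removed from every library the difference of Mef2c was 0.18, which was called (adjusted p = 8.56e-04 in limma), and those of Mef2a and Mef2d were 0.52 and 0.39. Centring the libraries on their medians and quantile normalization turned the sign of Mef2c to -0.016 and -0.039, without a call. The median over all genes was -0.061 and -0.045 in those settings.

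The 250 bases before the RefSeq start of each MEF2 gene (GRCm38.p6) are shown because these paralogs encode one family of DNA-binding proteins while their start regions differ in base composition. No measurement here reads out these windows. Capitals mark CG dinucleotides, which are the same on both strands.
Mef2a, minus strand, chr7:67372859-67373108: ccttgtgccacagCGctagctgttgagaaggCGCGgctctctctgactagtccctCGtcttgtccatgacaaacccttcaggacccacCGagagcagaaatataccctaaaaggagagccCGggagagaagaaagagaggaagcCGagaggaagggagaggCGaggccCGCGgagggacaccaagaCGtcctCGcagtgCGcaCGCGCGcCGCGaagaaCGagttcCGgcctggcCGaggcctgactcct
Mef2d, plus strand, chr3:88142122-88142371: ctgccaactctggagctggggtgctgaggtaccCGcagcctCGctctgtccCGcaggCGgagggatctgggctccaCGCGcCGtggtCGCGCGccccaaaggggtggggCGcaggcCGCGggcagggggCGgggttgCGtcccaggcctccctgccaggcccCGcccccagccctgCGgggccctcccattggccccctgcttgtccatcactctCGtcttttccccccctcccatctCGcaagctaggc
Mef2c, plus strand, first of the 3 starts listed, chr13:83503784-83504033: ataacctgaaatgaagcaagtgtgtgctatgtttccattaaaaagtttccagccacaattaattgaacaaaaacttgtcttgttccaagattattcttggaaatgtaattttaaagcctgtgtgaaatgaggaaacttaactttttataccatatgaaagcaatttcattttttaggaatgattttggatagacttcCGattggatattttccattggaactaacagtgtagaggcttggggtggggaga
These windows hold 21 CG in Mef2a, 19 in Mef2d and 1 in Mef2c, with a GC content of 61.6%, 73.2% and 33.6%. Of 32851 promoter windows of this length, 92.1% hold at least 1 CG, 19.7% hold as many as Mef2d and 16.3% as many as Mef2a. The median window holds 6 CG at 52.4% GC. The windows of the other 2 Mef2c starts, which are not shown, are closer to that median, with 6 CG at 44.8% GC and 4 CG at 49.6% GC. A search on both strands for the MEF2 motif, which 2.92% of all windows hold, found none in the 3 windows shown. The same search found no CAGATG in them, an E-box of the kind that Neurod factors bind, which 14.4% of windows hold and the window of the third Mef2c start holds, and no TGACGTCA, the cyclic AMP response element, which contains a CG and which 1.55% hold.

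Bcl11a (ENSMUSG00000000861, chromosome 11 from 24078056 to 24174123) lay between 9.92 and 10.26 (median 10.09) among the sham libraries and between 10.28 and 10.69 (median 10.34) among the HF-HI libraries. The groups were apart by a small gap between the highest sham and the lowest HF-HI library. The log2 difference was 0.30 (standard error 0.0498, 95% interval 0.20 to 0.41, adjusted p = 1.43e-05 in limma), or 1.24-fold, at an exonic GC content of 44.1%. Its paralog Bcl11b (ENSMUSG00000048251, chromosome 12 from 107910403 to 108003602) lay between 9.75 and 10.23 (median 9.98) among the sham libraries and between 9.86 and 10.57 (median 10.20) among the HF-HI libraries. Only 5 of the 11 HF-HI libraries exceeded the sham range, and 9 of 11 exceeded the sham median. The log2 difference was 0.24 (standard error 0.0758, 95% interval 0.079 to 0.39, adjusted p = 0.00878 in limma), or 1.18-fold. That call was lost when both GC and length trends were removed (difference 0.15, adjusted p = 0.101 in limma) and when the GC trend was removed with the replicate number as a block (0.17, adjusted p = 0.0816).

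Neurod6 (ENSMUSG00000037984, chromosome 6 from 55677822 to 55681263) was not called. It lay between 8.69 and 9.23 (median 8.97) among the sham libraries and between 8.79 and 9.39 (median 9.05) among the HF-HI libraries. The groups overlapped over most of their range, and 9 of 11 HF-HI libraries were above the sham median. The log2 difference was 0.13 (95% interval -0.013 to 0.28, adjusted p = 0.0999 in limma), and its exonic GC content is 41.9%. It passed at 0.16 without sham replicate 6 (adjusted p = 0.0452) and without HF-HI replicate 6 (adjusted p = 0.0376), and at 0.23 with the GC trend removed (adjusted p = 0.00411 in limma).

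**Figure D2:**
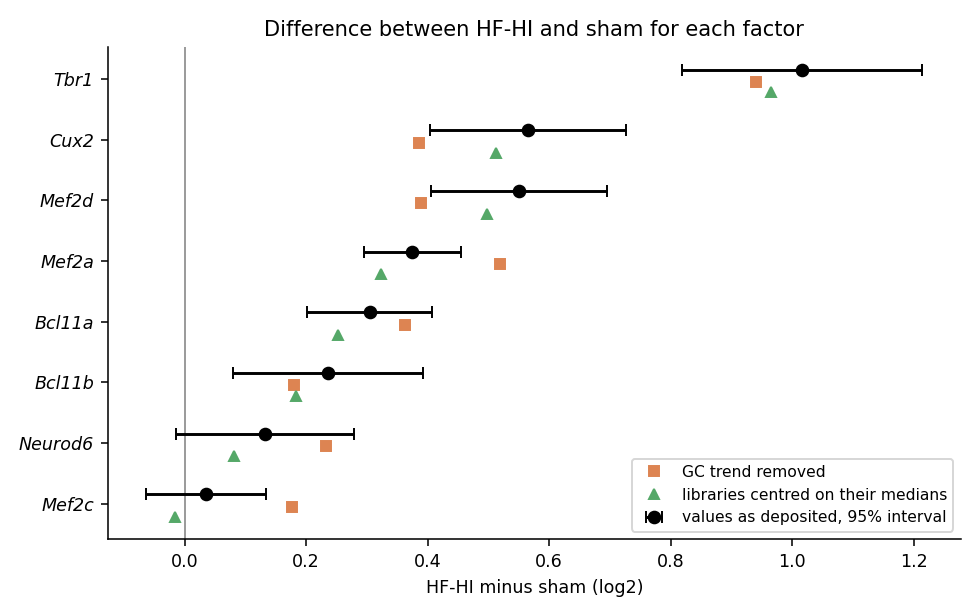
HF-HI minus sham difference (log2, x axis) of the 8 factors with the 95% interval from limma for the values as deposited (circles), and the difference after removal of the GC trend (squares) and after centring each library on its median (triangles). Tbr1 is highest at 1.02, and only the intervals of Neurod6 and Mef2c reach 0.

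Levels were compared between genes only per length, as 2 to the power of the value per kb of exon. In sham, Mef2c had a median level of 801 per kb and stood alone, with its lowest library at 701. The other 7 formed a graded order, from Neurod6 at 234 through Mef2d at 165, Mef2a at 141, Bcl11b at 125, Tbr1 at 109 and Bcl11a at 82.7 to Cux2 at 62.2. Each neighbour in that order overlapped with the next over the sham libraries, so these steps were not larger than the spread between libraries. In HF-HI the median level of Tbr1 was 223 per kb, between those of Mef2d at 236 and Mef2a at 180, and its range, 182 to 272, no longer touched that of Bcl11a, 94.5 to 125. That of Mef2c was 812.

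Whether 2 factors differed in their response was tested on the difference between their values within each library, for 6 pairs (permutation test with 100000 resamples, two-sided, adjusted over the 6 pairs). Mef2c relative to Mef2a was 2.42 to 2.76 in sham and 2.06 to 2.43 in HF-HI, with medians of 2.59 and 2.27. The groups overlapped only at the edge, and the fall of this difference was -0.34 (standard error 0.0529, permutation p = 2e-05, adjusted p = 6e-05). It was also -0.34 with the GC trend removed (adjusted p = 6e-05 from the permutation test). Mef2d relative to Mef2c rose by 0.51 (standard error 0.104, permutation p = 2.4e-04, adjusted p = 4.8e-04), and by 0.21 with the GC trend removed (adjusted p = 0.0123 from the permutation test). Mef2d relative to Mef2a, at 0.17 (standard error 0.0823, permutation p = 0.0492, adjusted p = 0.0590), did not pass, and its sign turned to -0.13 with the GC trend removed. Mef2a and Mef2d thus each differed in response from Mef2c, and their order relative to each other depended on the GC trend.

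The layer factors were compared in the same way. Cux2 relative to Tbr1 ran from -0.27 to 0.55 in sham and from -0.74 to -0.15 in HF-HI. Most HF-HI libraries lay below the sham range, and the difference fell by 0.45 (standard error 0.102, permutation p = 2e-05, adjusted p = 6e-05), so the layer 6 factor rose more than the upper-layer factor. Cux2 relative to Bcl11b, the layer 5 factor, rose by 0.33 (standard error 0.113, permutation p = 0.00492, adjusted p = 0.00738). That value was 0.25 without HF-HI replicate 3, and fell short of the threshold at 0.21 (adjusted p = 0.0869) with the GC trend removed. Bcl11b relative to Bcl11a differed by -0.069 (standard error 0.102, permutation p = 0.527, adjusted p = 0.527).

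**Figure D3:**
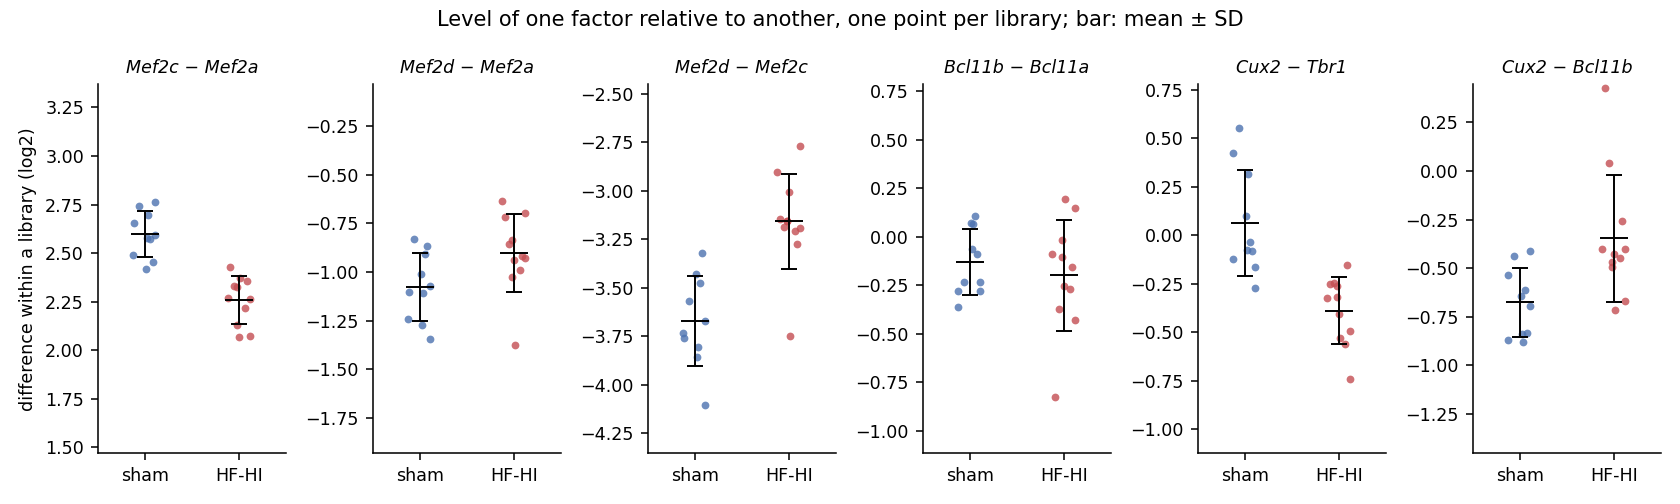
Difference between the values of 2 factors within a library (log2, y axis), one point per library, for 10 sham and 11 HF-HI libraries, with the mean and SD as bars. Mef2c relative to Mef2a and Cux2 relative to Tbr1 are lower in HF-HI, and Bcl11b relative to Bcl11a overlaps in the groups, with HF-HI replicate 3 lowest at -0.83.

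Markers of the layers, which share no gene with the 8 factors, were examined beside them. Of all genes 32.6% were called higher and 33.6% lower, and 29.2% higher with the GC trend removed. Among 6 upper-layer markers in the table, 3 were higher and 0 lower, with a median log2 difference of 0.12, against -0.0086 for all genes. With the GC trend removed 1 of the 6 was higher and 0 lower. With library medians centred 2 were higher and 1 lower, beside 1448 higher and 2376 lower among all genes. Of the upper-layer markers, Wfs1, an endoplasmic reticulum protein gene, had the largest difference at 0.46 (adjusted p = 0.00247 in limma). That difference was 0.23 and not called with the GC trend removed (adjusted p = 0.0699). Lamp5 had 0.40 (adjusted p = 0.00114) and was the 1 still called with the GC trend removed, at 0.33 (adjusted p = 0.0110). Rasgrf2, an exchange factor for Ras, had -0.016 (adjusted p = 0.826). Of 8 layer 5 markers listed 4 were in the table, and 2 were higher and 1 lower with a median of 0.13. Deptor, an inhibitor of mTOR, had 0.28 (adjusted p = 3.07e-04) and the thyroid hormone binding protein gene Crym had -0.40 (adjusted p = 4.46e-04). Of 11 layer 6 markers listed only 4 were in the table, and 0 were higher and 1 was lower, with a median of -0.038. The one that fell was Hs3st4, a heparan sulfate sulfotransferase gene, at -0.21 (adjusted p = 7.84e-04), or -0.40 with the GC trend removed. Tbr1 at 1.02 thus stood beside these 4 layer 6 markers, from -0.21 to 0.12, and the others listed could not be compared. The median of the layer 6 markers changed sign with the scaling, from -0.090 with library medians centred to 0.030 with the GC trend removed. The median over all genes was -0.061 and -0.0096 in those settings. Of 2 layer 4 markers in the table, 1 was higher, the potassium channel gene Kcnh5 at 0.39 (adjusted p = 1.6e-05), and 0 were lower.

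Markers of excitatory neurons as a class were mostly higher, with 4 of 5 higher and 0 lower and a median of 0.54. Among all genes 32.6% were higher and 33.6% lower. Nrgn, a calmodulin-binding postsynaptic protein gene, rose by 1.32 (adjusted p = 3.07e-10 in limma) and the vesicular glutamate transporter gene Slc17a7 by 0.89 (adjusted p = 8.88e-11). Markers of inhibitory neurons were 4 higher and 2 lower of 11 with a median of -0.016. These counts were 4 and 0 with the GC trend removed. They were 4 and 4 with medians centred, where lower calls also outnumbered higher calls among all genes (2376 and 1448). The summed level of the inhibitory list, as log2 of the sum, was 14.09 to 14.31 in sham and 14.16 to 14.32 in HF-HI. The vesicular GABA transporter gene Slc32a1 was highest among them at 0.64 (0.30 with the GC trend removed), and the noncoding RNA gene Dlx6os1 lowest at -0.21 (-0.080 and not called with the GC trend removed). Of the other cortical transcription factors on a list of 30, 17 were in the table, and 6 were higher and 0 lower. That count of higher calls is near the share of all genes called higher, 32.6%. Nfix, a nuclear factor I gene, had the largest difference at 0.69 (adjusted p = 1.96e-06), or 0.45 with the GC trend removed, and 11 of the 17 were not called. The median of the 17, 0.032, turned to -0.020 with library medians centred and to -0.0043 with quantile normalization, where 1 was lower in each. The median over all genes fell as well, from -0.0086 to -0.061 and -0.045. The median of the 8 factors went from 0.34 to 0.29 and 0.32 in the same settings.

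**Figure D4:**
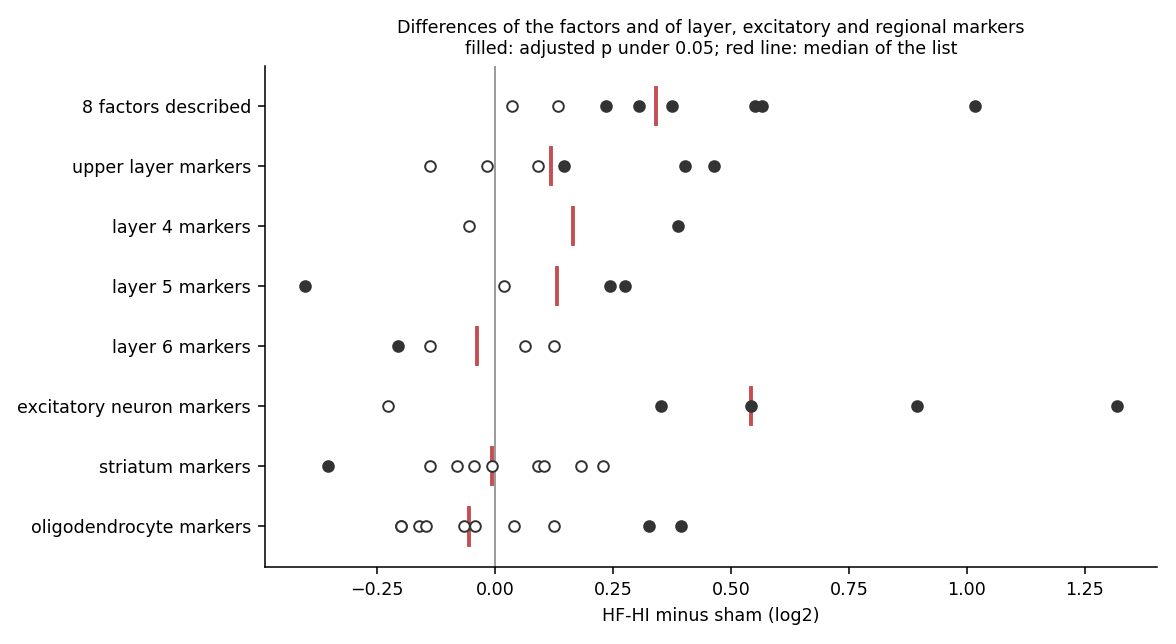
HF-HI minus sham difference (log2, x axis) of each gene in the list of 8 factors and in lists of layer, excitatory neuron, striatum and oligodendrocyte markers, filled where the adjusted p is under 0.05, with the median of the list as a red line. The excitatory neuron markers and the 8 factors have medians of 0.54 and 0.34, and the layer 6 markers -0.038.

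Genes that act on the MEF2 proteins were tested next. Of 14 listed, 12 were in the table, and 8 were higher and 2 lower with a median of 0.21. Among all genes 32.6% were called higher and 33.6% lower. The largest difference was that of Crebbp, an acetyltransferase and coactivator, at 0.42 (adjusted p = 1.80e-07 in limma), followed by that of the p38 kinase gene Mapk14 at 0.38 (adjusted p = 1.24e-08). The class II histone deacetylase gene Hdac5 had 0.35 (adjusted p = 5.93e-05), or 0.11 with the GC trend removed. The genes that were lower encode the catalytic subunits of calcineurin, Ppp3cb at -0.10 (adjusted p = 0.00152) and Ppp3ca at -0.081 (adjusted p = 0.0370), while the regulatory subunit Ppp3r1 was higher at 0.28 (adjusted p = 4.90e-05). With the GC trend removed, Ppp3cb and Ppp3ca were at 0.042 and 0.015 and not called, so that 8 were higher and 0 lower. In that setting 29.2% of all genes were higher. Of the E proteins and Id proteins, the partners and inhibitors of the Neurod factors, 4 of 7 were in the table, and 2 were higher and 0 lower, with Tcf4 at 0.17 (adjusted p = 0.00357). With medians centred 1 was higher and 1 lower, beside 1448 higher and 2376 lower among all genes.

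Covariation across libraries was examined within each group. Of 56 relations between members, in 28 pairs and both groups, 1 passed an adjusted p of 0.05 in Pearson's test and 5 had an unadjusted p under 0.05. It was that of Tbr1 and Bcl11a in HF-HI, with Pearson's r = 0.823 (permutation p = 3.3e-04, adjusted p = 0.0185) and Spearman's rho = 0.873 (permutation p = 0.00105, adjusted p = 0.0588), and r = 0.744 without the 2 libraries farthest from the median of Tbr1. In sham the same r was 0.0708 (permutation p = 0.844, adjusted p = 0.892), with rho = 0.0182 (permutation p = 0.973, adjusted p = 0.989) and r = 0.144 without the 2 farthest libraries. With the GC trend removed, 0 relations passed in Pearson's permutation test, with 9 at an unadjusted p under 0.05. Of the 28 pairs, r was positive for 20 in sham and for 18 in HF-HI, with median r of 0.15 and 0.20. In HF-HI, relative depth had Pearson's r = -0.686 with Tbr1 and -0.602 with Bcl11a (permutation p = 0.0216 and 0.0421, adjusted p = 0.144 and 0.211). Spearman's rho was -0.636 and -0.482 (permutation p = 0.041 and 0.138, adjusted p = 0.219 and 0.442). Without the 2 farthest libraries r was -0.784 and -0.893. In sham r was -0.371 and -0.626 (adjusted p = 0.566 and 0.211 by permutation). The part of depth in the relation of Tbr1 and Bcl11a was not tested.

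The members were also set against markers of tissue that adjoins the cortex. The mean of 9 striatum markers was 10.31 to 10.79 in the sham libraries and 9.83 to 11.07 in the HF-HI libraries, with medians of 10.50 and 10.61, and 0 of the 9 were higher and 1, Drd1, was lower at -0.36 (adjusted p = 0.00694 in limma). Among all genes 32.6% were higher and 33.6% lower. The summed level of the striatum list, as log2 of the sum, was between 13.54 and 14.74 over the libraries. This level cannot show whether each dissection held striatal tissue, since every gene of the table has a value in every library. Bcl11b had positive correlations with the striatum markers within both groups, with Pearson's r = 0.785 in sham and 0.755 in HF-HI (permutation p = 0.00651 and 0.00835), and Spearman's rho = 0.782 and 0.673 (permutation p = 0.00977 and 0.0282). None of these passed over the 80 relations (adjusted p = 0.103 for both r, 0.176 and 0.204 for rho), and without the 2 farthest libraries r was 0.660 and 0.521. Other measures had relations to Bcl11b of like size that did not pass either. For the GC slope r was 0.832 in sham (permutation p = 0.00254, adjusted p = 0.0677) and -0.375 in HF-HI (permutation p = 0.257, adjusted p = 0.527), with rho = 0.794 and -0.245 (permutation p = 0.00873 and 0.466, adjusted p = 0.176 and 0.834) and r = 0.640 and 0.190 without the 2 farthest libraries. For the mean of the inhibitory neuron markers r was 0.491 in sham (permutation p = 0.149, adjusted p = 0.376) and 0.740 in HF-HI (permutation p = 0.00902, adjusted p = 0.103), with rho = 0.697 and 0.709 (permutation p = 0.0305 and 0.0178, adjusted p = 0.204 for both) and r = 0.537 and 0.615 without the 2 farthest libraries. HF-HI replicate 4 had the highest striatum marker mean, 11.07, and the highest Bcl11b, 10.57. HF-HI replicate 3 had the lowest of both, 9.83 and 9.86 among the HF-HI libraries, together with the highest Cux2. The part of striatal tissue, interneurons and the GC slope in the difference of Bcl11b was not tested.

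Mef2c was lower in HF-HI libraries with higher oligodendrocyte markers, with Pearson's r = -0.935 (permutation p = 1e-05, the lowest value possible with these resamples, adjusted p = 8e-04) and Spearman's rho = -0.909 (permutation p = 2.6e-04, adjusted p = 0.0208), and r = -0.855 without the 2 farthest libraries. In sham r was 0.398 (permutation p = 0.254, adjusted p = 0.527), with rho = 0.212 (permutation p = 0.563, adjusted p = 0.847) and r = 0.111 without the 2 farthest libraries, and the difference between the groups was not tested. The mean of the 10 oligodendrocyte markers was 10.90 to 11.66 in sham and 10.93 to 11.54 in HF-HI, and 2 of them were higher and 0 lower between the groups. The count was 2 higher and 3 lower with medians centred, with quantile normalization, with the replicate block and without sham replicate 5, and 2 and 2 with the GC trend removed and without sham replicate 9. Leaving out any other library gave 2 higher and 0 or 1 lower. Among all genes 1864 were lower in the main fit. That number was 2376 with medians centred, 2242 with quantile normalization, 1758 with the replicate block and 1878 without sham replicate 5. In HF-HI, Mef2c had other negative correlations, none of which passed. Pearson's r was -0.685 for the GC slope, -0.607 for relative depth and -0.576 for the striatum markers (permutation p = 0.0235, 0.0479 and 0.0634, adjusted p = 0.145, 0.211 and 0.231). Spearman's rho was -0.464, -0.309 and -0.664 (permutation p = 0.155, 0.356 and 0.0306, adjusted p = 0.447, 0.750 and 0.204). Without the 2 farthest libraries r was -0.240, -0.303 and -0.539. The part of these measures or the oligodendrocyte markers in the values of Mef2c was not tested. Mef2d had a positive correlation with the GC slope of its library, which passed the threshold for r in sham and not for rho or in HF-HI, with Pearson's r = 0.899 in sham (permutation p = 6e-04, adjusted p = 0.0240) and 0.764 in HF-HI (permutation p = 0.00558, adjusted p = 0.103). Spearman's rho was 0.855 and 0.645 (permutation p = 0.00282 and 0.0361, adjusted p = 0.113 and 0.206), and r was 0.789 and 0.708 without the 2 farthest libraries.

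**Figure D5:**
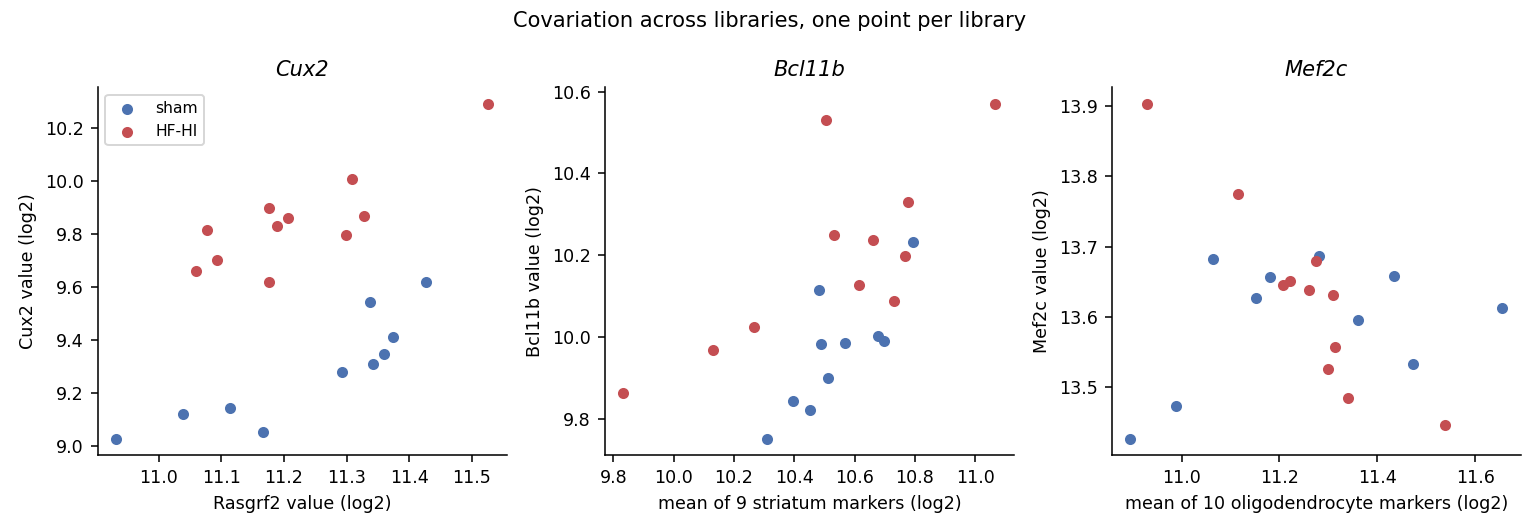
Levels (log2) across libraries, one point per library, of Cux2 against Rasgrf2, of Bcl11b against the mean of 9 striatum markers, and of Mef2c against the mean of 10 oligodendrocyte markers, for sham and HF-HI. Cux2 and Rasgrf2 rise together within each group while the HF-HI points lie above the sham points, and Mef2c falls with the oligodendrocyte markers in HF-HI (r = -0.935).

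The gene whose values were most like those of Cux2 was Rasgrf2, the upper-layer marker, with Pearson's r of 0.870 over the 10 sham and 0.836 over the 11 HF-HI libraries, the highest mean r of 5543 genes compared, given without a test since it is the highest of many. Rasgrf2 had a mean of 11.24 (SD 0.166, n = 10) in the sham and of 11.22 (SD 0.137, n = 11) in the HF-HI libraries. Libraries with more Rasgrf2 thus had more Cux2 within a group, while between the groups Cux2 differed by 0.57 and Rasgrf2 by -0.016. Mef2d was most like Crtc1, a calcium-regulated coactivator of CREB, with r = 0.960 in sham and 0.964 in HF-HI, and then Camta2, a calmodulin-binding transcription activator, with r = 0.945 and 0.913. Crtc1 and Camta2 were higher in HF-HI by 0.57 and 1.07 (adjusted p = 6.85e-06 and 5.96e-09 in limma). With the GC trend removed their mean r with Mef2d was 0.940 and 0.850. Bcl11a was most like the postsynaptic scaffold gene Shank1 (r = 0.920 and 0.784), and Tbr1 was most like Ube2ql1 (r = 0.882 and 0.842) and the ubiquitin ligase gene Huwe1 (r = 0.790 and 0.932). Bcl11b was most like Caln1 (r = 0.847 and 0.883) and Mef2c like Dennd5b (r = 0.741 and 0.918), and neither of these genes was called between the groups (adjusted p = 0.284 and 0.753 in limma). Mef2a was most like the RNA-binding protein gene Hnrnpd (r = 0.808 and 0.825) and Neurod6 like Khdrbs3, another RNA-binding protein gene (r = 0.890 and 0.786). The second most alike genes were Plxnd1 for Cux2 (mean r = 0.831), Gnaq for Bcl11a (0.832), Cacnb4 for Mef2c (0.820) and Nkiras1 for Neurod6 (0.831). With the GC trend removed the mean r of Tbr1 fell from 0.862 to 0.711 with Ube2ql1 and from 0.861 to 0.708 with Huwe1. That of Mef2c with Cacnb4 fell to 0.625, the lowest among these genes.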

How the data were processed

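Reads were aligned by the authors to mm10 with STAR, counted per transcript with eXpress and normalized with DESeq2 (the versions of STAR and eXpress are not given in the sources used here). The deposited log2 values are variance-stabilized, which shrinks differences of weakly expressed genes. Counts, which the DESeq2 test of the study needs, were not analysed here. Symbols, exons and GC content were taken from GENCODE M21 of GRCm38, the assembly of mm10 (5539 genes). The members and lists were chosen with earlier results of these data known.

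HF-HI and sham were compared without covariates by limma (version 3.58.1, R 4.3.3; lmFit, then eBayes allowing for a mean-variance trend, two-sided). Pairs and correlations were tested in Python 3.11.15 (scipy 1.17.1, numpy 2.4.6) by permutation with 100000 resamples, adjusted over 6 pairs, 56 relations between members and 80 with regional and technical measures. Tables were handled in pandas 2.3.3 and plots drawn in matplotlib 3.10.9. The pair planned with Neurod2 was not run. Relative depth came from the spacing of values whose power of 2 is 500 to 600. Named genes are the members, the 2 genes with the highest mean within-group r for each, and the called genes with the largest difference in each direction in a list. Rasgrf2 (as a marker), Lamp5, Slc17a7, Mapk14, Hdac5, Ppp3ca, Ppp3r1, Zbtb20 and Plekhg1 were named after their values were seen. The fits and trend removal were tested on simulated data. Alternatives were an adjusted p of 0.1, a minimum absolute difference of 0.25, eBayes without trend, medians centred, quantile normalization, the lowest quartile of genes left out, a replicate block, lowess trends (span 0.3) removed on GC content, alone or with the block, and on GC content and exonic length, relative depth as covariate, and each library left out.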

Additional observations from a re-analysis of the deposited data

How the results depend on the processing

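Tbr1, Cux2, Mef2a, Mef2d and Bcl11a kept their direction and their call in all 11 alternatives and in the 21 fits that each left out a library. Bcl11b lost its call at a minimum absolute difference of 0.25 (0.24), with the GC trend removed and the replicate block (0.17) and with GC and length trends removed (0.15). Mef2c was called with the GC trend removed (0.18), with that and the replicate block (0.18) and with GC and length trends removed (0.11), and its sign turned with library medians centred (-0.016) and quantile normalization (-0.039). Neurod6 was called at an adjusted p of 0.1 (0.13), with the GC trend removed (0.23), with that and the replicate block (0.25) and with GC and length trends removed (0.37), and its value was not computed among the genes outside the lowest quartile. The cause of these changes was not tested. The number of factors called higher was 5 to 8 over the alternatives. Mef2d relative to Mef2a turned to -0.13 (adjusted p = 0.0233 from the permutation test) with the GC trend removed and to -0.085 with GC and length trends removed. Cux2 relative to Bcl11b fell short at 0.21 and 0.19 in those settings. The correlations between members that passed went from 1 to 0 with the GC trend removed, a setting chosen after seeing the data.

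With each library left out in turn, the log2 differences ran from 0.97 to 1.07 for Tbr1, 0.52 to 0.60 for Cux2, 0.36 to 0.39 for Mef2a, 0.51 to 0.58 for Mef2d, 0.0082 to 0.054 for Mef2c, 0.28 to 0.32 for Bcl11a, 0.20 to 0.27 for Bcl11b and 0.10 to 0.16 for Neurod6. The pair Mef2d relative to Mef2a, 0.15 to 0.22, passed without sham replicate 2, 5 or 8 or HF-HI replicate 9 (adjusted p = 0.0329, 0.0375, 0.0439 and 0.00684 from the permutation test). Samples of the 2 groups with the same replicate number share only that number: the correlation of their deviations ran from -0.31 to 0.364 over 10 pairs, with 4 over 0.1, and 0 sham libraries were most like the HF-HI library of their own number. The replicate block, which leaves HF-HI replicate 11 without a partner and so without weight, changed no call of a factor or pair when used alone, with log2 differences of 1.00 for Tbr1, 0.23 for Bcl11b and 0.37 for Mef2a.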

Other observations

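Markers of glia and vessels were called in both directions, as were all genes (32.6% higher and 33.6% lower). Of 11 astrocyte markers, 5 were higher and 3 lower, with a median log2 difference of 0.0084. The counts were 3 higher and 5 lower with quantile normalization (median -0.091), 3 and 4 with medians centred and 4 and 4 with the GC trend removed. Over all genes they were 1547 and 2242 (median -0.045), 1448 and 2376, and 1620 and 1716 in the same order. Atp1b2, a sodium pump subunit gene, was highest at 0.69 and the calcium-binding protein gene S100b lowest at -0.20 (adjusted p = 0.00399 in limma), and the summed level of that list, as log2 of the sum, was 16.45 to 16.54 in sham and 16.53 to 16.63 in HF-HI. The oligodendrocyte markers that were higher were Mbp at 0.39 and Cldn11 at 0.33, both myelin genes. The microglia marker Csf1r was higher at 0.13 (-0.0038 and not called with the GC trend removed). Of 2 endothelial markers, Flt1 was higher at 0.28 and Slco1a4 lower at -0.24. The 2 choroid plexus markers in the table were not called, and their summed level reached 14.13 in HF-HI and 12.87 in sham. The single hippocampus and thalamus markers in the table, Zbtb20 and Plekhg1, were not called (0.034 and 0.13). Gpc5 was the gene after Hnrnpd in likeness to Mef2a within the groups (mean r = 0.802), yet was lower in HF-HI by -0.12 (adjusted p = 0.0118 in limma) where Mef2a was higher. Strip2, the second gene by likeness to Bcl11b (mean r = 0.857), was lower by -0.15 (adjusted p = 0.0496 in limma).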
